A study of Mus musculus with 4 samples.

Results

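Mest, Peg3, H19, Dlk1, Plagl1, Grb10, Ndn, Sgce and Peg10 are 9 mouse genes of the imprinted growth network, a group of parentally imprinted genes that are expressed together in growing tissues. They were followed here through every non-control array probe whose accession is paired with one of these symbols in a RefSeq table. The rule found 13 probes of 8 of the 9 genes, out of 41174 non-control probes. No probe was matched to H19 by accession, and H19 is not analysed here; the array may still carry an H19 probe under an older accession that this table does not hold. The genes were chosen by their log2 ratios on these same arrays, so those ratios are given below as a description, without a test.

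The cells were mouse microvascular smooth muscle cells labelled as derived from Rap1a knockout animals, male and of strain C57BL6, so the absence of Rap1a by label is common to both groups. Rap1a encodes a Ras-related GTPase with roles in cell adhesion. In 1 group the cells carried an empty shuttle vector and in the other a shuttle vector named RapCA, which the labels do not explain. The design sets the empty vector as the control. All cells grew in medium with 10% serum, were given virus overnight without serum when plated, and then recovered for 48 h in 0.5% serum before total RNA was extracted. Each of 4 two-colour Agilent arrays on 1 slide held 1 RNA of each group, the empty vector in Cy5 and RapCA in Cy3 on every array, and an effect of the dye cannot be told apart from one of the condition. As for the samples, the labels call the pairs biological replicates 1 to 4 without saying whether these came from separate cultures or animals, and the p-values below measure only the spread between these samples. In bulk RNA, fewer cells of a type and less RNA per cell cannot be told apart.

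Imprinted genes are expressed mainly from the copy inherited from 1 parent, and DNA methylation at a control region marks which copy is silent. Most of the listed genes are paternally expressed (Mest, Peg3, Dlk1, Plagl1, Ndn, Sgce and Peg10), H19 is a maternally expressed non-coding RNA, and Grb10 is expressed from the maternal copy in most tissues. As a group they are abundant in the embryo and fall in most tissues after birth, and Plagl1, a zinc finger transcription factor, is known to regulate several of the others. The arrays measure the sum of both parental copies, so nothing below bears on which copy was read.

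The promoters of 4 measured genes are printed because their transcripts stood higher together in the RapCA-labelled channel, and because the Mest and Plagl1 windows overlap the kind of CpG-rich promoter whose methylation marks an imprint. Each line gives the 250 bases before the transcription start, 5′ to 3′ on the strand of the gene, from RefSeq on build GRCm38.p6. Capitals mark CpG dinucleotides. The windows lie at chr6:30737800-30738049 on the plus strand for Mest (1 of 3 start sites in the table), chr10:13090582-13090831 on the plus strand for Plagl1, chr12:109452573-109452822 on the plus strand for Dlk1, and chr7:62348027-62348276 on the plus strand for Ndn.
Mest: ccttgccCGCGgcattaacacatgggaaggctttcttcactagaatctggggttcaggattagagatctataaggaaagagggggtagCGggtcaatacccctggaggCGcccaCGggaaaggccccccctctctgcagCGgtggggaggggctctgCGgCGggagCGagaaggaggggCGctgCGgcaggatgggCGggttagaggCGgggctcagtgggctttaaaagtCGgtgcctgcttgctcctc
Plagl1: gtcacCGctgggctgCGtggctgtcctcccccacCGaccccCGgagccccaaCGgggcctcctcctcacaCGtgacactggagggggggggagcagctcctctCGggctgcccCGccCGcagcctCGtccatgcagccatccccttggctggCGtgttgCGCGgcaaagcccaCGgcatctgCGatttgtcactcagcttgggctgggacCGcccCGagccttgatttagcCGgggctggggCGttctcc
Dlk1: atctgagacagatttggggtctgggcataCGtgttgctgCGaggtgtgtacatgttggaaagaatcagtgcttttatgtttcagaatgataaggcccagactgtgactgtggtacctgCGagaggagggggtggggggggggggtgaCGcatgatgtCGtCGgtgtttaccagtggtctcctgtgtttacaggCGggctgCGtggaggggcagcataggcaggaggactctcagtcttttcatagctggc
Ndn: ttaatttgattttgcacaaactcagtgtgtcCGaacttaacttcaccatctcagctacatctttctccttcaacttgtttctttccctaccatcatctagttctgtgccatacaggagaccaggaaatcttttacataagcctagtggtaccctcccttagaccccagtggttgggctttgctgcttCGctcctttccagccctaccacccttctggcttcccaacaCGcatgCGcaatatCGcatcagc

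The Plagl1 window held 19 CpG dinucleotides, the printed Mest window 14, the Dlk1 window 8 and the Ndn window 5, against a median of 6 over 32851 promoter windows of this length. Fewer CpG were found in 80.3% of all windows than in that of Plagl1, in 70.6% than in that of Mest, in 57.0% than in that of Dlk1, and in 44.4% than in that of Ndn. Grb10 had 2 windows on the minus strand, of which chr11:12037421-12037670 held 40 CpG, more than 98.7% of all windows, and chr11:12027972-12028221 held 8, more than 57.0%. Both strands were searched for TGCCGC, the unmethylated form of the motif read by ZFP57, a zinc finger protein that protects imprints in the embryo. This motif occurred at 2 places in the printed Mest window and at 1 place in the Plagl1 window, and 8.68% of all windows held it. Another Mest window, chr6:30733256-30733505, held 7 CpG, more than 53.7% of all windows, and 0 matches to this motif. The remaining Mest window, chr6:30737803-30738052, nearly coincides with the printed one. The PLAGL1 motif GGGGCCCC, read the same on both strands, occurred in 1 of the member windows, that of Peg3 at chr7:6730420-6730669 on the minus strand, and in 0.889% of all windows. The YY1 motif GCCATNTT, found in 3.91% of all windows, had no match in any window of the 6 members present in the table (Mest, Plagl1, Dlk1, Ndn, Peg3 and Grb10). No window held matches to more than 1 of these motifs. A match describes letters only, and methylation and binding were not measured in these cells.

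Rap1a itself, the gene named as knocked out, did not follow the labels. Its probe was well above background in both channels of cells labelled as knockout, and its ratio, RapCA-labelled over vector-labelled, was -0.46, -1.02, -1.31 and -1.47, a mean of -1.06 ± 0.44 (SD, n = 4; limma adjusted p = 0.00204). Its place relative to the deleted part of the gene is not given in the sources used here, and every direction below follows the labels of the dyes alone. Replicate 1 stood apart: it correlated with the other arrays at 0.69 to 0.78 over 23485 probes, against 0.93 to 0.98 among those. In Cy5, 51.3% of its probes were well above background, against 60.1% to 61.9%. Its median net signal in Cy5 was 37, against 75.5 to 83.5 on the other arrays. Most of the measured smooth muscle and fibroblast markers were called higher in the RapCA-labelled channel. Over all genes tested, 28.9% were called higher and 24.9% lower. Of 10 smooth muscle markers, 9 were measured and 6 were called higher, with a median log2 ratio of 1.25 and a mean level over the list of 12.73 to 12.86 log2 units against 11.50 to 11.99. Of 8 fibroblast markers, 7 were measured and 6 were called higher, with a median of 2.29 and levels of 12.75 to 13.02 against 10.50 to 10.73. The smooth muscle markers Myh11 (0.13 ± 0.20), Cnn1 (0.07 ± 0.20) and Smtn (0.08 ± 0.24) and the fibroblast marker Pdgfra (0.17 ± 0.64) were measured and not called. Of 6 pericyte markers 3 were called higher and 1 lower, the latter Kcnj8 at -0.40 ± 0.08. Of 6 adipocyte markers 1 was called higher and 2 lower, and of 7 endothelial markers 1 higher and 2 lower. Of the leukocyte markers, Cd14 at 0.08 ± 0.21 and 1 of 3 Csf1r probes at 0.02 ± 0.35 were well above background on every array in both channels and were not called. The epithelial marker Krt8 was well above background on every array in the vector-labelled channel alone and was called lower (-1.04 ± 0.02 at its brighter probe), and Krt18 was so on 3 of 4 arrays and was not tested. The markers Des, Lum, Rgs5, Abcc9, Adipoq, Plin1, Pecam1, Cdh5, Ptprc, Adgre1, Epcam and Cdh1 were not well above background in either channel, nor were the 5 markers of skeletal muscle precursors. The part of cell composition in the ratios of the imprinted genes was not tested.

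Mest, Dlk1, Sgce, Plagl1, Ndn and Peg10 stood higher in the RapCA-labelled channel on all 4 arrays, from 15.1-fold for Mest to 1.23-fold for Peg10, while Peg3 and Grb10 were not well above background in either channel. Values below are log2 ratios, RapCA-labelled over vector-labelled, after background correction and loess normalization within each array, and ± is the SD over 4 arrays. Channel levels, above and below, were in addition quantile-normalized between arrays on average intensity, which leaves the ratios unchanged. They are therefore not raw intensities. Of the 13 member probes, 8 passed the filter on dim probes, which asks for signal well above background in 1 channel or both on every array, and entered the fit. In that limma fit over 23497 probes, 49.6% of probes had a Benjamini-Hochberg adjusted p under 0.05 and were called, 26.4% as higher and 23.2% as lower. All 8 member probes in the fit were among those called higher. Taken by the brightest probe of each gene, all 6 member genes in the fit were called higher, where 53.9% of 12388 genes were called, 28.9% as higher and 24.9% as lower. Nothing is read from these counts because the genes were chosen by these ratios. The levels of both channels did not overlap over the arrays for any of the 8, as was so in the same direction for 23.4% of all probes in the fit. The 5 remaining probes, of Peg3 and Grb10, were not tested.

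**Figure D1:**
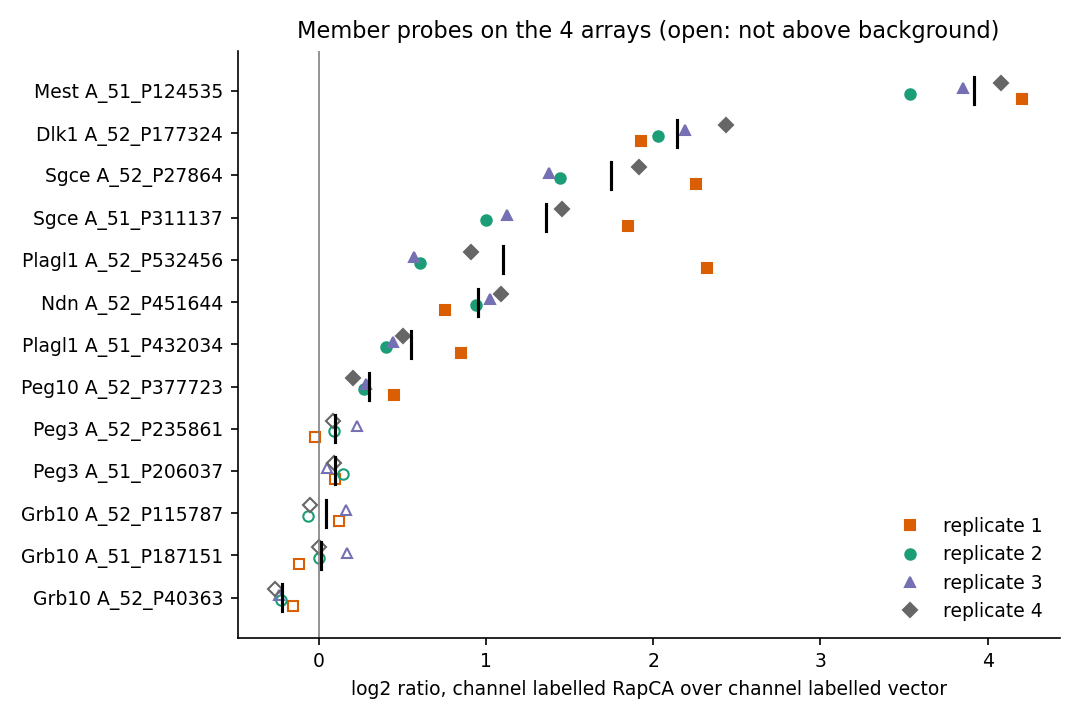
Log2 ratio, RapCA-labelled over vector-labelled, for each of the 13 member probes, with 1 point per array, a vertical bar at the mean of 4 arrays, and open points for probes not well above background. Mest lies highest at 3.92, the 8 probes in the fit lie above 0 on every array, and the open points of Peg3 and Grb10 lie between -0.26 and 0.23.

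Mest, also called Peg1, encodes a membrane protein of the alpha/beta-hydrolase fold whose loss is known to restrict fetal growth. Its probe A_51_P124535 gave log2 ratios of 4.21, 3.54, 3.85 and 4.08 on replicates 1 to 4, a mean of 3.92 ± 0.29 (SD, n = 4). The level in the RapCA-labelled channel was 15.18, 14.83, 15.04 and 15.18 log2 units and that in the vector-labelled channel 10.97, 11.30, 11.19 and 11.10. Every RapCA-labelled level thus lay above every vector-labelled level, and the arrays of 1 channel lay close together in both channels, with SDs of 0.16 and 0.14. By mean ratio this probe was at place 7 among the 23497 in the fit, counted from the highest.

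Dlk1 encodes a transmembrane protein related to Notch ligands, which is known as preadipocyte factor because it holds preadipocytes back from differentiation. Its probe A_52_P177324 gave log2 ratios of 1.93, 2.03, 2.19 and 2.43, a mean of 2.14 ± 0.22 (SD, n = 4) or 4.42-fold. The level was 13.29, 13.06, 13.58 and 13.70 in the RapCA-labelled channel and 11.36, 11.03, 11.39 and 11.27 in the vector-labelled channel. The groups did not overlap, and replicate 4 had the highest ratio and the highest RapCA-labelled level. Its place by mean ratio was 196.

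Sgce and Peg10 are neighbours that are read in opposite directions from a shared imprinted control region. Sgce encodes epsilon-sarcoglycan, a member of the sarcoglycan complex that links the cytoskeleton to the matrix, and the smooth muscle form of that complex contains it. The brighter Sgce probe, A_51_P311137, gave 1.85, 1.00, 1.12 and 1.46, a mean of 1.36 ± 0.38 (SD, n = 4) or 2.56-fold. The other, A_52_P27864, gave 2.26, 1.44, 1.38 and 1.91, a mean of 1.75 ± 0.41 or 3.36-fold. Both probes were highest on replicate 1, where the level labelled vector was lowest (12.98 against 13.46 to 13.75 on the other arrays for A_51_P311137). The channel labelled RapCA was nearly level over the arrays for that probe, at 14.74 to 14.92. Without replicate 1 the means of these probes were 1.19 and 1.58. Peg10, derived from a retrotransposon and needed for the placenta, was near the detection limit. Its probe A_52_P377723 gave 0.45, 0.27, 0.28 and 0.21, a mean of 0.30 ± 0.11 (SD, n = 4), and stood well above background in the RapCA-labelled channel on 4 of 4 arrays and in the vector-labelled channel on 3 of 4. The RapCA-labelled levels of 6.95 to 7.13 lay just above the vector-labelled levels of 6.65 to 6.86. Peg10 was not among the probes called higher without replicate 2, 3 or 4, and it left the fit where both channels had to be well above background. Its ratio was 0.90 in the scanner software's own values.

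Plagl1, the transcription factor of the group, had 2 probes in the fit that differed in size. The brighter, A_52_P532456, gave log2 ratios of 2.32, 0.60, 0.57 and 0.91, a mean of 1.10 ± 0.83 (SD, n = 4). Replicate 1 stood apart through its vector-labelled level of 11.54, against 13.38, 13.24 and 13.20 on the other arrays, while the RapCA-labelled levels were 13.86, 13.99, 13.81 and 14.11. Without replicate 1 the mean ratio was 0.69. The dimmer probe, A_51_P432034, gave 0.85, 0.40, 0.44 and 0.50, a mean of 0.55 ± 0.20 (SD, n = 4), and was also highest on replicate 1.

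Ndn encodes necdin, a MAGE-family protein that holds back cell division and is known from neurons and muscle precursors. Its probe A_52_P451644 gave 0.76, 0.94, 1.02 and 1.09, a mean of 0.95 ± 0.14 (SD, n = 4) or 1.94-fold, the smallest SD after that of Peg10 among the 8 probes in the fit. The level was 12.81, 12.64, 12.79 and 12.91 in the RapCA-labelled channel and 12.05, 11.70, 11.76 and 11.82 in the vector-labelled channel, with no overlap. On replicate 1 the Ndn ratio was the lowest of the 4, as was that of Dlk1, whereas those of Mest, Sgce, Plagl1 and Peg10 were highest there. Without replicate 1 the mean was 1.02 for Ndn, 3.82 for Mest, 2.22 for Dlk1 and 0.25 for Peg10.

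Peg3, which encodes a zinc finger protein, and Grb10, an adaptor that restrains insulin receptor signalling, had no probe well above background on any array in either channel. The Peg3 probes A_51_P206037 and A_52_P235861 had mean ratios of 0.10 ± 0.04 and 0.10 ± 0.10. The Grb10 probes A_51_P187151, A_52_P115787 and A_52_P40363 had 0.01 ± 0.12, 0.04 ± 0.12 and -0.22 ± 0.05. With neither channel well above background, these ratios measure no difference, and neither a fold nor a bound is given.

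**Figure D2:**
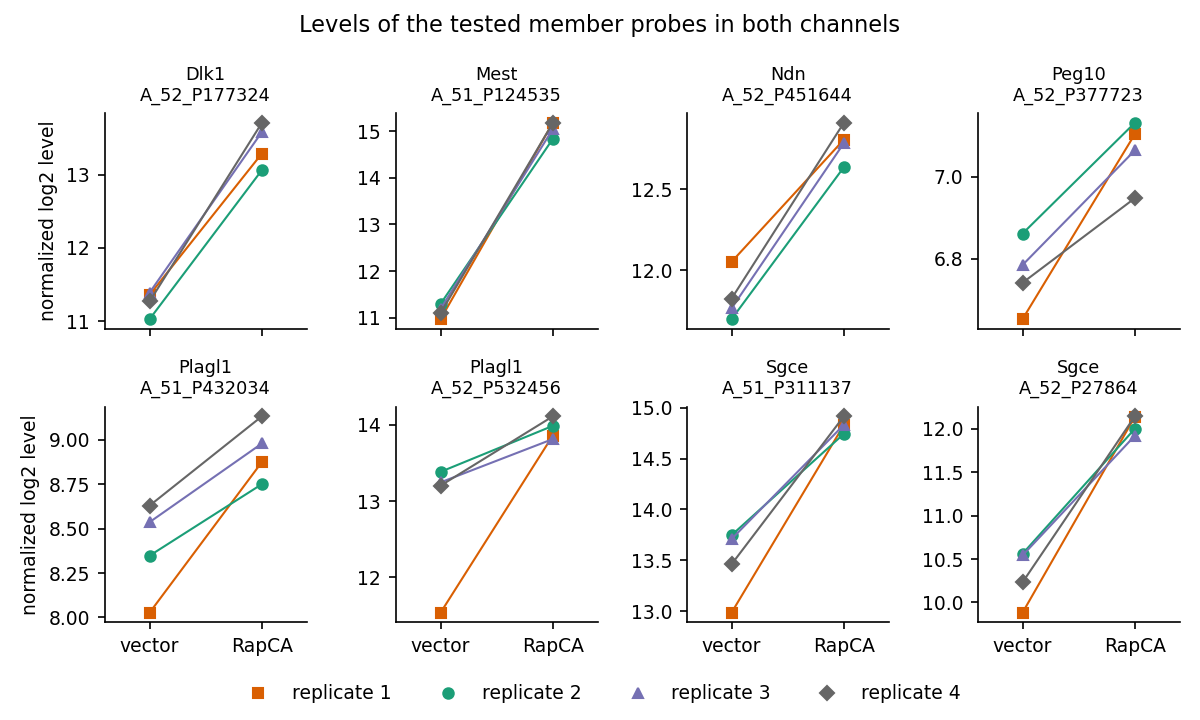
Normalized log2 level of each member probe in the fit, with 1 line per array joining the vector-labelled channel to the RapCA-labelled channel. Every line rises, and the line of replicate 1 starts lowest for Plagl1 A_52_P532456 (11.54) and for both Sgce probes.

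In order of mean ratio at the brightest probe, Mest led, followed by Dlk1, Sgce, Plagl1, Ndn and Peg10. The lowest Mest array (3.54) exceeded the highest Dlk1 array (2.43), and the lowest Dlk1 array (1.93) exceeded the highest Sgce array of that probe (1.85). The other Sgce probe reached 2.26 on replicate 1 and overlapped Dlk1, so that separation holds for the brighter Sgce probe only. Sgce and Plagl1 overlapped over the arrays, as did Plagl1 and Ndn, so their order does not exceed their spread. The lowest Ndn array (0.76) exceeded the highest Peg10 array (0.45). That gap depends on the processing, as the means in the scanner software's own values were 0.93 for Ndn and 0.90 for Peg10.

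Median centring in place of loess shifted the median of all probes from 0.01 to -0.14 and kept each member in the fit above 0. The mean ratio of Mest was then 3.57, of Dlk1 1.86, of Ndn 0.67 and of the brighter Sgce probe 0.89. Of the 8 member probes, 4 were called under that centring (Mest, Dlk1, Sgce A_52_P27864 and Ndn). Over all probes 27.9% were called, against 49.6% under loess. Median centring also moved the split over all probes, with 40.1% of called probes higher against 53.3% under loess.

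The genes that lie in the same imprinted domains as the members were taken from a list of 30, of which 26 had a probe and 17 were in the fit. By the brightest probe of each, 12 were called higher, 1 lower and 4 were not called, and the median was 0.67. Snrpn and Snurf, which share a transcript, are counted separately among the 12. Of the 12, Rian, Ddc, Igf2 and Ppp1r9a were well above background on every array in the RapCA-labelled channel alone, so the filter kept them through the channel where they are high. Where both channels had to be well above background, 13 genes remained, of which 8 were called higher and 1 lower, with a median of 0.66. Over all genes in the fit, with 28.9% called higher and 24.9% lower, the median was 0.02. With median centring 7 domain genes were called higher and 0 lower, with a median of 0.52.

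With the members themselves left out, the listed genes of the Dlk1 domain had the highest median ratio of these domains, 2.18 over 3 genes in the fit. The domains of Mest, H19, Plagl1 and Grb10 had 1 such gene each and that of Peg3 had 0, too few to rank domains. The Dlk1 domain holds paternally expressed protein genes and maternally expressed non-coding RNAs under a shared control region between Dlk1 and Meg3. Dio3, which encodes the deiodinase that inactivates thyroid hormone, gave 2.45, 3.11, 3.66 and 3.69, a mean of 3.23 ± 0.58 (SD, n = 4), and rose 9.38-fold in the RapCA-labelled channel (limma adjusted p = 5.38e-05). Meg3, a maternally expressed long non-coding RNA, rose at all 5 of its probes. Its brightest, A_51_P455997, gave 2.41, 1.81, 2.07 and 2.43, a mean of 2.18 ± 0.30 (limma adjusted p = 4.46e-05), and the others had means of 0.79 to 2.11. Rian, a non-coding RNA that hosts small nucleolar RNAs, rose with a mean of 1.35 ± 0.15 (limma adjusted p = 9.58e-05), well above background in the vector-labelled channel on 3 of 4 arrays. RNAs known from either parental copy, Dlk1 and Dio3 on one side and Meg3 and Rian on the other, thus all stood higher in the same channel. No probe was matched to Rtl1 or Mirg.

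**Figure D3:**
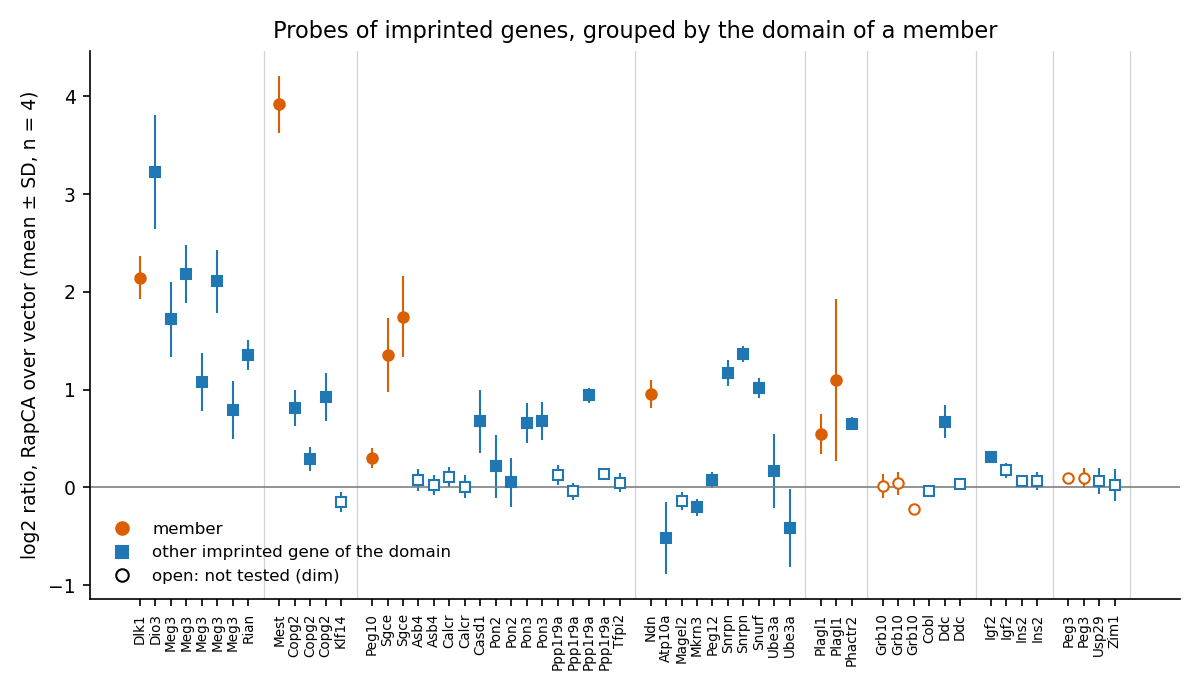
Mean log2 ratio ± SD over 4 arrays for every probe of each member (circles) and of the imprinted genes listed in its domain (squares), with open symbols for probes too dim for the fit. In the Dlk1 domain Dio3 (3.23), the brightest Meg3 probe (2.18), Dlk1 (2.14) and Rian (1.35) lie above 1, while in the Ndn domain Snrpn (1.36) lies above 1 and Atp10a (-0.52) below 0.

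In the domain of Ndn, the Snrpn probes rose. Snrpn encodes a spliceosome protein and Snurf is an upstream reading frame of the same transcript, so their probes cannot be told apart by gene. The brightest Snrpn probe gave 1.28, 1.41, 1.31 and 1.46, a mean of 1.36 ± 0.09 (SD, n = 4; limma adjusted p = 6.96e-05), and the Snurf probe had a mean of 1.01 ± 0.10. Mkrn3 at -0.20 ± 0.08, Peg12 at 0.08 ± 0.08 and Ube3a at 0.17 ± 0.38 were not called. Atp10a, a phospholipid transporter, fell with a mean of -0.52 ± 0.37 (limma adjusted p = 0.0247), a call that was lost without replicate 2, 3 or 4 (adjusted p of 0.0957, 0.127 and 0.0882). Magel2, next to Ndn, was not well above background.

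Beside Mest, Copg2, which encodes a coatomer subunit, rose in 3 probes by smaller amounts than Mest, with 1.07, 0.82, 0.69 and 0.68 at the brightest and a mean of 0.81 ± 0.18 (SD, n = 4; limma adjusted p = 0.000957). With median centring the Copg2 mean was 0.67 and not called (adjusted p = 0.13). Klf14 was not well above background.

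Around Sgce and Peg10, Casd1, a sialic acid acetyltransferase, rose by a mean of 0.68 ± 0.32 (limma adjusted p = 0.00612) and Pon3, a paraoxonase, by 0.66 ± 0.21 at its brightest probe (limma adjusted p = 0.0029). Ppp1r9a, an actin-binding neurabin, had a mean of 0.94 ± 0.07 (limma adjusted p = 0.000282) and was well above background in the vector-labelled channel on 2 of 4 arrays. Pon2 at 0.05 ± 0.25 was not called, and Asb4 and Calcr were not well above background. Casd1 and Pon3 were not called with median centring (0.52 with adjusted p = 0.226 and 0.34 with adjusted p = 0.361).

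In the remaining domains, Phactr2, next to Plagl1, rose by 0.65 ± 0.07 (limma adjusted p = 0.00129), and with median centring it stood at 0.52 (adjusted p = 0.102). Ddc, beside Grb10, had a mean of 0.67 ± 0.17 and was well above background in the vector-labelled channel on 1 of 4 arrays. Igf2, the growth factor gene beside H19, stood well above background in the RapCA-labelled channel on 4 of 4 arrays and in the vector-labelled channel on 0 of 4. Its mean ratio was 0.31 ± 0.03 (SD, n = 4; limma adjusted p = 0.0269) or 1.24-fold, against a vector-labelled signal that was not well above background. That call was lost without replicate 2, 3 or 4 (adjusted p of 0.144, 0.156 and 0.0731). The other Igf2 probe, at 0.17 ± 0.08, was not well above background in either channel and was not tested. Usp29 and Zim1, beside Peg3, were not well above background.

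Over all 67 other genes listed as imprinted in the mouse, 61 had a probe and 43 were in the fit, of which 23 were called higher, 7 lower and 13 not, with a median of 0.43. Among all genes in the fit, 28.9% were called higher and 24.9% lower. Without replicate 3 the count of lower calls in the list was 4. Where both channels had to be well above background, 18 of 35 were called higher and 6 lower. Under that filter 50.6% of all probes were called, and 51.4% of those calls were higher. Median centring gave 10 higher and 8 lower with a median of 0.06, where the median of all probes was -0.14. Over all probes the share of calls that were higher was then 40.1%, against 53.3% under loess. The size of the excess of higher over lower calls thus depends on the centring, as does the split over all probes. Outside the domains of the members, 26 genes were in the fit, with 11 higher, 6 lower and a median of 0.02, the same as that over all genes. The highest ratios in this list belonged to Dcn, Dio3 and Meg3. Dcn, the matrix proteoglycan decorin, gave 3.95, 3.64, 3.86 and 4.08, a mean of 3.88 ± 0.19 (SD, n = 4; limma adjusted p = 6.99e-06), and is one of the fibroblast markers above. Tnfrsf23, a decoy receptor for a death ligand, gave -2.10, -1.70, -1.79 and -1.91, a mean of -1.88 ± 0.17 (limma adjusted p = 3.73e-05).

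Genes that set, keep or read the methylation of imprints were listed as 18, of which 16 had a probe and 15 were in the fit. Of these, 2 were called higher, 6 lower and 7 not, with a median of -0.34. Over all genes in the fit, 28.9% were called higher and 24.9% lower. The count of lower calls was 12 without replicate 1 and 3 without replicate 3, so it rests on which arrays are used. The share of all probes called, in either direction, moved the same way, at 67% without replicate 1 and 33.7% without replicate 3. Dnmt3a, a de novo DNA methyltransferase, rose by 1.16 ± 0.11 at its brightest probe (limma adjusted p = 0.000141) and Tet3, which oxidises methylcytosine, by 1.57 ± 0.50 (limma adjusted p = 0.000544). Other Dnmt3a probes had 0.91 and -0.02, so they disagree, and other Tet3 probes rose by 0.49 ± 0.08 and 0.27 ± 0.06, far less than the brightest. Dnmt3l, a cofactor of the de novo enzymes, fell with a mean of -1.11 ± 0.18 (limma adjusted p = 0.000255), and Uhrf1, which brings the maintenance enzyme to newly copied DNA, fell with -1.17 ± 0.24 (limma adjusted p = 0.000301). With median centring Tet3 had an adjusted p of 0.0522.

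By root mean square difference of the log2 ratio over the 4 arrays, the nearest named probes to Mest were Dcn (0.139), Jag1 (0.160) and Svep1 (0.231). Ratios were not centred for this measure, so it mainly finds probes of similar mean ratio, and the neighbours are given as a description. Jag1 encodes a Notch ligand. The nearest to Dlk1 were Pmepa1 (0.0506), Ltbp3 (0.0685) and Tagln (0.0924). Tagln, which encodes the smooth muscle protein transgelin, gave 1.79, 2.02, 2.31 and 2.40 beside the 1.93, 2.03, 2.19 and 2.43 of Dlk1.

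**Figure D4:**
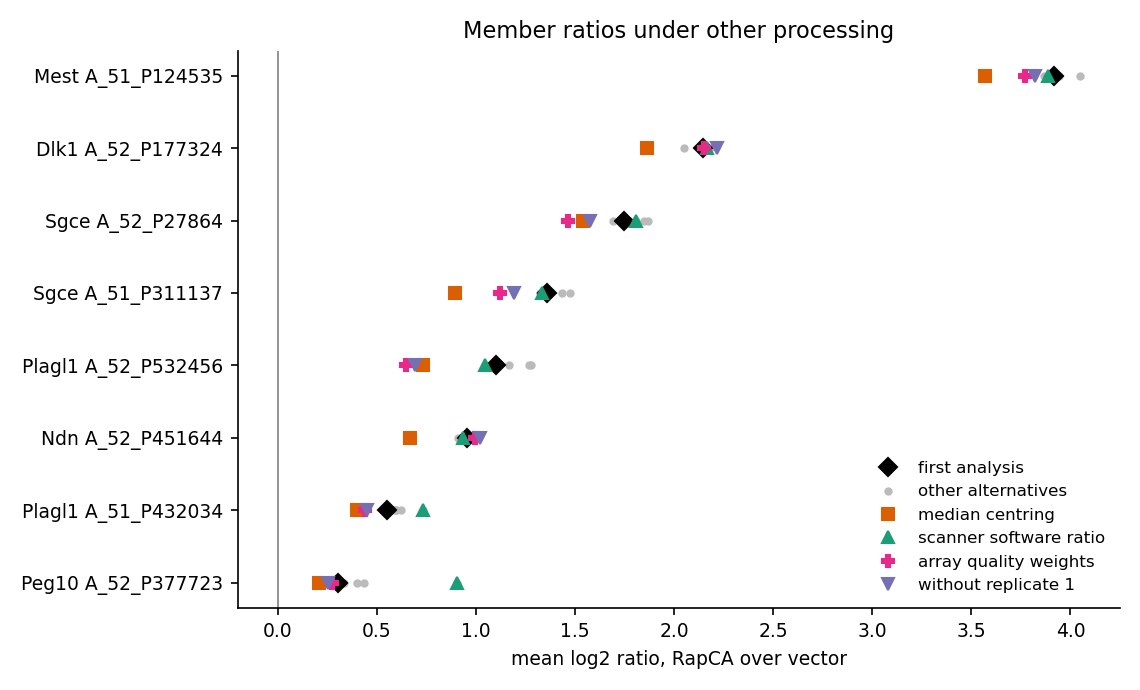
Mean log2 ratio of each member probe in the fit under the loess setting and under each alternative setting, with the points named in the key for 4 of them. Mest spans 3.57 to 4.05, Dlk1 1.86 to 2.22, and Peg10 0.21 to 0.90, and no point lies below 0.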

How the data were processed

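Total RNA of both groups was labelled with Cy5 (vector) or Cy3 (RapCA) and hybridised in 4 pairs, per the labels. The intensity values deposited by the authors are median spot and local background signals per channel, not normalized, per the file headers, which name Agilent Feature Extraction 10.7.3.1 (10.9 per the submitters' processing notes). The deposited log10 ratios of the scanner files and of the series matrix are the software's background-subtracted, dye-normalized Cy5 over Cy3 values, per the file headers. They were used as alternatives.

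Background was corrected with normexp (offset 50) and ratios were loess-normalized within arrays, with control spots at weight 0. For channel levels alone, average intensities were then quantile-normalized between arrays (Aquantile), a step that leaves the ratios unchanged. Outlier spots (94 to 137 per array) were left out and no spot was saturated. Spots of a probe were averaged over 43379 spots. Probes with signal well above background in 1 channel or both on every array, and values on at least 3, were tested against 0 with limma (lmFit, eBayes), with calls where the Benjamini-Hochberg adjusted p was under 0.05. The number of arrays limits the precision. Genes were taken at their brightest probe, and 64.8% of probes had a symbol through RefSeq accessions. The files name another genome build than the RefSeq tables, so no probe was placed on a gene.

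Members, gene lists and markers were chosen with earlier results of these data known. Named were all member probes, measured genes of the members' domains, the 4 other imprinted genes with the largest ratio among those called, the 4 maintenance genes with the smallest p, the 3 nearest profiles of Mest and of Dlk1, and Rap1a. Alternatives covered offset, background, centring, software ratios, filters, outlier spots, weights, variance trend, the replicate block and each array left out. Scripts were tested on simulated data. R 4.3.3, limma 3.58.1, statmod 1.5.0, the data.table package at version 1.17.8, Python 3.11.15, pandas 2.3.3 and matplotlib 3.10.9 were used.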

Additional observations from a re-analysis of the deposited data

Results flagged for a closer look

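Every probe in the fit of the members, of the other listed imprinted genes and of the imprint maintenance genes was examined. Of these 97 sets of 4 arrays, 16 held an array whose gap to the nearest of the others exceeded Dixon's critical share of the range, where chance gives about 1 in 20. None of the 16 was among the 8 member probes, too few to tell them from the rest. Plagl1 A_52_P532456, at 2.32 on replicate 1 against 0.57 to 0.91, did not pass that cut. The array was replicate 1 in 12 of them, replicate 2 in 1 and replicate 4 in 3.

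In the domains of the members, Copg2 probe A_52_P48777 had a log2 ratio of 1.29 on replicate 1 against 0.77 to 0.83 on the other arrays, Phactr2 had 0.56 on replicate 2 against 0.67 to 0.70, and Ube3a probe A_51_P268977 had -0.40 on replicate 4 against 0.33 to 0.40. Igf2r, the receptor that clears IGF2, had 2.21 on replicate 1 against 0.69 to 0.90. Replicate 1 was also the higher one for Inpp5f (0.90 against 0.26 to 0.35), Zrsr1 (1.22 against 0.32 to 0.45), Nap1l4 A_51_P171405 (-0.062 against -0.74 to -0.64), Herc3 (-0.25 against -1.18 to -1.09) and Sfmbt2 (-0.43 against -1.19 to -1.10).

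Replicate 1 was the lower one for Tssc4 (-0.47 against 0.24 to 0.36) and H13 (-0.55 against 0.11 to 0.21). It was so for 3 Commd1 probes too, at -0.54 against -0.19 to -0.14, -0.39 against 0.19 to 0.25, and -0.66 against -0.22 to -0.15. Among the maintenance genes, replicate 4 was lower for 1 probe of Zfp445 (-0.75 against 0.01 to 0.15) and for 1 of Tet2 (-0.12 against 0.20 to 0.26).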

How the results depend on the processing

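Of the mean ratios of the 13 member probes under the 10 alternatives that change them, 112 stayed within 1 SD of the value given. Of the rest, 18 moved further, and 0 changed the sign of a called value. Leaving out 1 of 4 arrays cannot move a mean by 1 SD, so those alternatives could only count as staying. The software ratios of the scanner files and of the series matrix are nearly the same values but count as separate alternatives. The yardstick is each probe's own SD, so Plagl1 A_52_P532456, at 0.65 to 1.28 over the alternatives, counted as staying throughout. The other 5 alternatives concern the filter, the test or spots of other probes and leave these means as they are. Median centring gave 2624 probes called higher of all, 4 member probes, 10 other imprinted genes and 1 maintenance gene. With no filter on dim probes 1 member probe was called lower, Grb10 A_52_P40363. Array quality weights gave 8639 probes called lower of all, 11 other imprinted genes and 12 maintenance genes. The cause of these shifts was not tested. With each array left out in turn, calls were 4373 to 8075 higher and 3532 to 7666 lower over all probes, 19 to 24 higher and 4 to 9 lower for other imprinted genes, and 2 higher and 3 to 12 lower for maintenance genes. Members had 7 to 8 higher and 0 lower calls, Peg10 being the one lost. The pairing of channels on an array is the replicate block of the fit; with no replicate block, 43.6% of all probes were called, with 8 member probes higher and 0 lower, 21 other imprinted genes higher and 7 lower, and 2 maintenance genes higher and 6 lower. Signal over background limits Peg3, Grb10, Igf2 and Peg10, whose ratio was 0.43 with an offset of 16.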

Other observations

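These genes were chosen after their values were seen. In the cluster around Kcnq1, an imprinted domain that was not among those of the members, 12 genes were in the fit, of which 5 were called higher, 3 lower and 4 not, with a median of 0.00. Among all genes in the fit, 28.9% were called higher and 24.9% lower. Cdkn1c, which encodes the maternally expressed cell cycle inhibitor p57, gave log2 ratios of 0.91, 1.22, 1.37 and 1.80, a mean of 1.33 ± 0.37 (SD, n = 4; limma adjusted p = 0.000465). Slc22a18, a transporter gene, gave 0.88, 1.42, 1.92 and 2.42, a mean of 1.66 ± 0.66 (limma adjusted p = 0.00115), and its other probe gave 0.02, 0.54, 0.59 and 0.79, a mean of 0.49 ± 0.33 (limma adjusted p = 0.0255) with levels that overlapped between the channels. Phlda2, which restrains placental growth, gave -1.26, -0.63, -0.79 and -0.68, a mean of -0.84 ± 0.29 (limma adjusted p = 0.00184), and stood well above background in the RapCA-labelled channel on 3 of 4 arrays. The 3 probes of Nap1l4 disagreed, at -0.54, 0.35 and 0.08. Cdkn1c and Slc22a18 stood higher, and Phlda2 and Tnfrsf23 lower, within 1 domain. With 53.9% of all genes in the fit called and these genes picked by their values, nothing is read from that split.

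Igf2r had a mean of 1.14 ± 0.72 (limma adjusted p = 0.00791), or 0.79 without replicate 1, and with median centring it stood at 0.75 and was not called (adjusted p = 0.257).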
